A study of Mus musculus with 6 samples.

Results

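Leukocyte adhesion and Weibel-Palade genes were followed in lung endothelial cells that had lost *Atp6ap2*, the (pro)renin receptor gene, after birth. The members were 8 genes chosen by name, *Vwf*, *Selp*, *Sele*, *Icam1*, *Icam2*, *Vcam1*, *Ackr1* and *Cd34*, and all 8 were found among the 24972 gene symbols of the deposited table. The cells were iLECs, CD31-positive cells that the authors drew out of digested lungs of P7 mice with antibody-coated magnetic beads. Control samples (n = 3) were labelled *Atp6ap2* fl/Y, and *Atp6ap2*iECKO samples (n = 3) were labelled *Atp6ap2* fl/Y with *Cdh5-CreERT2*, a tamoxifen-inducible Cre under the promoter of the endothelial gene *Cdh5*. All 6 samples carried the floxed allele and had received 100 μg of tamoxifen on P1, P2 and P3, so a control with Cre but without the floxed allele was not part of this comparison. The labels give the strain as C57BL/6, whereas the methods describe a mixed CD1 and C57BL/6 background. The sources used here do not say whether lungs of several pups were pooled, so *P* values measure the spread between these samples.

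Values are the authors' normalized counts, which are estimated counts per gene already scaled between libraries. They summed to 28725799, 27813574 and 26359661 in control replicates 1, 2 and 3 and to 27221581, 27104145 and 26243878 in *Atp6ap2*iECKO replicates 1, 2 and 3. The number of reads behind a value is unknown, and precision was limited by 3 libraries per genotype. *Atp6ap2* itself stood at normalized counts of 7490, 5815 and 5681 in replicates 1, 2 and 3 of the controls and of 4220, 2336 and 1982 in the *Atp6ap2*iECKO replicates. The genotypes did not overlap, and its log2 fold change was -1.22 with a standard error of 0.26 (limma, adjusted *P* = 0.0306). That call held without *Atp6ap2*iECKO replicate 1 and was lost when any of the other 5 libraries was left out (adjusted *P* up to 0.103). The endothelial marker *Cdh5* was abundant in every library, between 76599 and 110813, and *Pecam1*, which encodes the CD31 used for the isolation, lay between 48730 and 57759. All labels give a Y chromosome, yet *Xist*, the transcript of the inactive X chromosome, was above 1000 in 4 libraries while control replicate 3 held 31.7 and *Atp6ap2*iECKO replicate 2 held 19.3. The Y-linked *Ddx3y* was at 4554 and 4656 in those 2 libraries and at 173, 0, 0 and 11.3 in control replicates 1 and 2 and *Atp6ap2*iECKO replicates 1 and 3. The methods say that neonates of both sexes were used in the study. Member results are therefore also given for the 4 libraries that had *Xist*.

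Endothelial cells store von Willebrand factor, the product of *Vwf*, together with P-selectin (*Selp*) in Weibel-Palade bodies, secretory granules that fuse with the plasma membrane within minutes of stimulation. P-selectin and the newly transcribed E-selectin (*Sele*) then capture passing leukocytes, and ICAM-1, ICAM-2 and VCAM-1 hold them by binding leukocyte integrins. CD34 is a sialomucin of the endothelial surface, and ACKR1 is an atypical chemokine receptor of venules. Transcription of *Sele*, *Icam1* and *Vcam1* is known to respond to inflammatory cytokines through NF-kB.

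RefSeq (GRCm38.p6) promoters were found for 5 of the 8 members, *Selp*, *Sele*, *Icam1*, *Cd34* and *Ackr1*. The 250 bases before the annotated start are shown for the 4 with the highest mean values, to place the letters of known inflammatory and endothelial motifs beside their values. Capitals mark matches on either strand to an NF-kB motif (GGG and CC with any bases at the 5 places between), the ETS motif AGGAAG or the TATA box TATAAA. The letters AGATAA, known from GATA sites, were also searched, and no marked matches overlapped.
Selp, chr1:164115014-164115263, plus strand: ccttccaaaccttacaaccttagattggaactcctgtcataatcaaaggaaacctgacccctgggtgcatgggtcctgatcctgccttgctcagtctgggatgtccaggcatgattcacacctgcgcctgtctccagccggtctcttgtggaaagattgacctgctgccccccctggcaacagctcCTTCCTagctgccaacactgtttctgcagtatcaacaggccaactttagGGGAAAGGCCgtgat
Sele, chr1:164047984-164048233, plus strand: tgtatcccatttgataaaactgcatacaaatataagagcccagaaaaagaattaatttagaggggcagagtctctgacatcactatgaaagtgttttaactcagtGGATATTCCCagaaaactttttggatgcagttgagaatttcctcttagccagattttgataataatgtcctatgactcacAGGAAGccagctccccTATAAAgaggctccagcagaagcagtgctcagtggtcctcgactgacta
Icam1, chr9:21015690-21015939, plus strand: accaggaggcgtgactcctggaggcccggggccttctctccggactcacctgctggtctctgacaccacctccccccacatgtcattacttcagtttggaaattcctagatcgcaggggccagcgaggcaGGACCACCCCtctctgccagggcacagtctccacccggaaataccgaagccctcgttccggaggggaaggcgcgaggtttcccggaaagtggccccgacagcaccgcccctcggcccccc
Cd34, chr1:194938571-194938820, plus strand: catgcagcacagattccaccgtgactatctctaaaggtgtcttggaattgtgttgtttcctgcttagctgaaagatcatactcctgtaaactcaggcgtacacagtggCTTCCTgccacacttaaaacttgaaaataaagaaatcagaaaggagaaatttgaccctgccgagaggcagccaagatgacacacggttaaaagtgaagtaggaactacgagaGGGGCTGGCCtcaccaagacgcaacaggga
All 4 windows held 1 match to the NF-kB letters, which 45.8% of the 32851 mouse promoter windows of this length also held. *Selp*, *Sele* and *Cd34* held 1 match each to the ETS letters (29.5% of all windows), *Sele* alone among these 4 held the TATA box letters (12.4%), and none of them held the GATA letters (9.99%). The *Ackr1* window, which is not shown, held 0 matches to the NF-kB letters and 3 to the ETS letters. A match is a run of letters and no evidence of binding. Entries were not found for *Vwf*, *Icam2* and *Vcam1*.

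Of the 8 members, 7 passed the low-value filter, which asked for 10 or more normalized counts in 3 or more libraries, and *Ackr1* did not. Only *Cd34* differed between genotypes at an adjusted *P* value below 0.05, and it was higher in *Atp6ap2*iECKO iLECs. Over all 14456 genes tested, 8.25% were called, with 3.28% called higher and 4.97% called lower. These are 474 and 719 genes, a split that was 573 and 599 after library size scaling and turned to 460 and 365 when control replicate 2 was left out. The log2 fold change was above 0 for 6 of the 7 tested members, all but *Vcam1*, against 50.7% of all genes. The median of the 7 was 0.24, beside 0.005 over all genes tested. The genotypes did not overlap for 4 of the 7, with *Selp*, *Icam1* and *Cd34* higher and *Vcam1* lower in all 3 *Atp6ap2*iECKO libraries, where 29.8% of all genes tested did not overlap. Without adjustment, 5 members had a *P* value below 0.05, as did 23.9% of all genes tested.

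**Figure D1:**
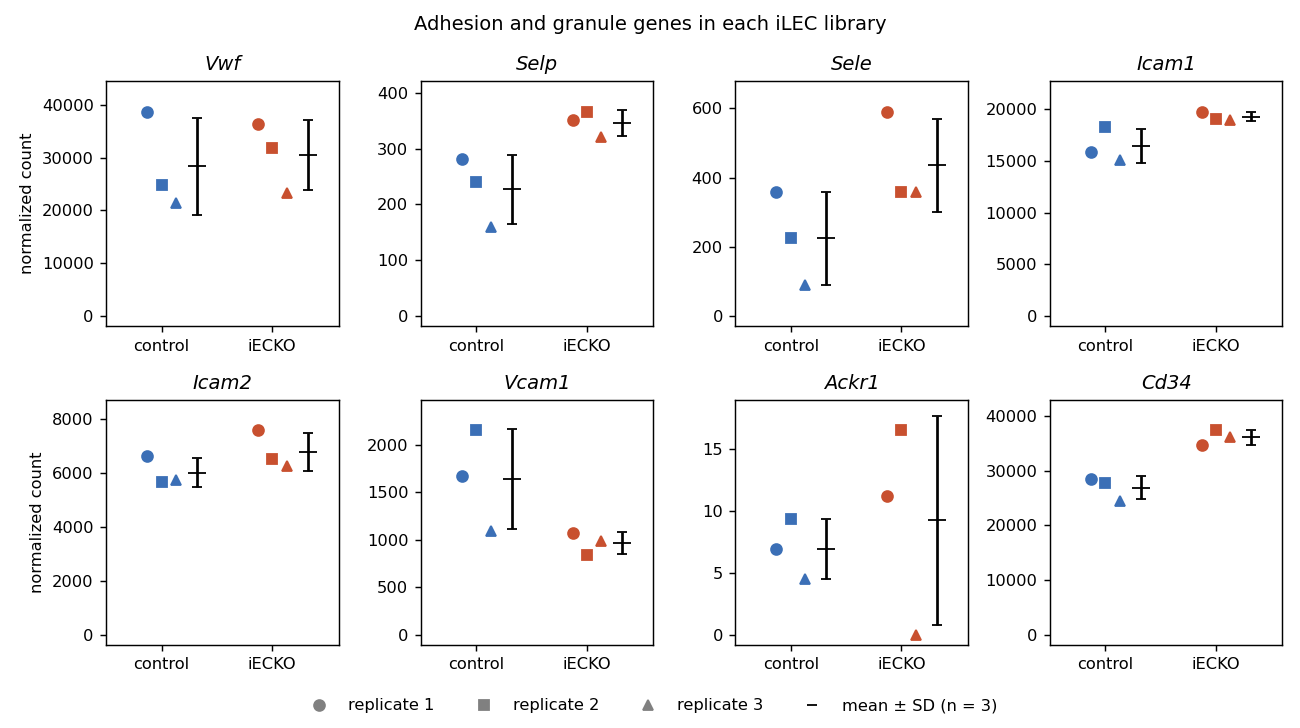
Normalized count (vertical axes, linear, starting near 0) of the 8 genes in each control and *Atp6ap2*iECKO (iECKO) library. Points are libraries, with 1 symbol for each replicate number, and bars give the mean and SD (n = 3). *Cd34*, *Selp* and *Icam1* of every *Atp6ap2*iECKO library lie above every control library, *Vcam1* lies below, and *Vwf* and *Icam2* overlap.

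*Vwf*, which encodes the multimeric glycoprotein that tethers platelets and gives Weibel-Palade bodies their elongated shape, lies on the plus strand of GRCm38 at chr6:125546774-125686679. Its normalized counts were 38689, 24836 and 21482 in control replicates 1, 2 and 3 and 36292, 31782 and 23240 in the *Atp6ap2*iECKO replicates. Both genotypes ranged widely, the highest library was a control, and the ranges overlapped almost entirely. The means were 28336 ± 9122 (SD, n = 3) and 30438 ± 6629 (SD, n = 3), and the log2 fold change was 0.13 with a standard error of 0.24 (limma, adjusted *P* = 0.803). The 95% interval of the fold, 0.742 to 1.61, includes 1 and leaves room for a change in either direction. The sign of the difference was negative without control replicate 3 (-0.05), without *Atp6ap2*iECKO replicate 1 (-0.01) and in the 4 libraries with *Xist* (-0.09), and the log2 fold change was 0.37 without control replicate 1. Platelets and megakaryocytes also make *Vwf*, and the summed level of 12 platelet markers was 4993, 2342 and 1788 in control replicates 1, 2 and 3 and 4293, 2080 and 2624 in the *Atp6ap2*iECKO replicates. In both genotypes the library with the most platelet marker signal was also the one with the most *Vwf*. Among the *Atp6ap2*iECKO libraries, however, replicate 2 had the least platelet marker signal but more *Vwf* than replicate 3. The most abundant of these markers was *Gp1ba*, at a mean of 843, and *Gp6* was listed at 0 in 3 libraries. None of the 11 platelet markers tested was called with all 6 libraries, and the part of platelets in the *Vwf* values was not tested.

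*Selp*, the gene of the granule membrane selectin, lies on the plus strand at chr1:164115264-164150026. It stood at normalized counts of 281, 240.5 and 160.2 in replicates 1, 2 and 3 of the controls and of 352, 366 and 320.1 in the *Atp6ap2*iECKO replicates. The lowest *Atp6ap2*iECKO library was above the highest control library, and control replicate 3 was the lowest of all. The means were 227 ± 61.4 (SD, n = 3) and 346 ± 23.5 (SD, n = 3), 1.56 times as high on the fitted scale (95% interval 1.10 to 2.20). The log2 fold change of 0.64 (standard error 0.22) missed the threshold after adjustment over all genes (adjusted *P* = 0.117 from limma). It was 0.41 without control replicate 3 and up to 0.81 without control replicate 1. In the 4 libraries with *Xist* the ratio of means was 1.29, and between the 2 libraries without it, 2.28. *Gm16548*, an antisense gene that overlaps *Selp*, had 7.19% of the mean level of *Selp*. The library kit does not mark strand, so reads of the overlap cannot be told apart.

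*Sele*, whose product is made by activated endothelium and is not stored in granules, lies next to *Selp* at chr1:164048234-164057677 on the plus strand. Its normalized counts were 358.9, 224 and 90.7 in control replicates 1, 2 and 3 and 590.1, 357.6 and 358.7 in the *Atp6ap2*iECKO replicates. The genotypes overlapped by a narrow margin, because control replicate 1 matched the 2 lower *Atp6ap2*iECKO libraries, and the control values differed severalfold among themselves. The means were 225 ± 134 (SD, n = 3) and 435 ± 134 (SD, n = 3). *Sele* had the largest log2 fold change of the 7 tested members, 1.12, and the largest standard error, 0.46 (adjusted *P* = 0.187 from limma). The 95% interval of the fold was 1.04 to 4.53. With a library left out, the log2 fold change ranged from 0.57 without control replicate 3, where that of *Vcam1* was larger in size, to 1.56 without control replicate 1. The ratio of means was 1.63 in the 4 libraries with *Xist* and 3.94 between the 2 without it. As in any bulk sample, a different number of expressing cells and a different amount of RNA per cell cannot be told apart.

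*Icam1*, the cytokine-inducible ligand of the leukocyte integrins LFA-1 and Mac-1, lies at chr9:21015985-21028817 on the plus strand. It was abundant in every library, and its normalized counts were 15849, 18253 and 15129 in control replicates 1, 2 and 3 and 19748, 19066 and 18971 in the *Atp6ap2*iECKO replicates. The *Atp6ap2*iECKO libraries lay close together and above all controls. The means were 16410 ± 1636 (SD, n = 3) and 19262 ± 424 (SD, n = 3), and the log2 fold change was 0.24 with a standard error of 0.10 (limma, adjusted *P* = 0.189). The ratio of means was 1.14 in the 4 libraries with *Xist* and 1.26 between the 2 without it.

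*Icam2*, a constitutive endothelial LFA-1 ligand, lies on the minus strand at chr11:106377656-106388075. Its normalized counts were 6619, 5657 and 5729 in control replicates 1, 2 and 3 and 7586, 6512 and 6258 in the *Atp6ap2*iECKO replicates. Control replicate 1 fell within the *Atp6ap2*iECKO range. The log2 fold change was 0.18 with a standard error of 0.10 (limma, adjusted *P* = 0.358), with a 95% interval of the fold from 0.957 to 1.33. Without *Atp6ap2*iECKO replicate 1, the highest library, the log2 fold change was 0.093 (adjusted *P* = 0.643). The ratio of means was 1.13 in the 4 libraries with *Xist* and 1.14 between the 2 without it.

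*Vcam1*, which encodes the ligand of the integrin VLA-4, lies on the minus strand at chr3:116109949-116129688 and was the only tested member with lower values in *Atp6ap2*iECKO iLECs. Its normalized counts were 1669, 2156 and 1096 in control replicates 1, 2 and 3 and 1069.5, 844 and 985 in the *Atp6ap2*iECKO replicates. All *Atp6ap2*iECKO libraries were below all controls, although control replicate 3 and *Atp6ap2*iECKO replicate 1 almost met. The means were 1640 ± 531 (SD, n = 3) and 966 ± 114 (SD, n = 3), and the log2 fold change was -0.72 with a standard error of 0.23 (limma, adjusted *P* = 0.0982). The difference passed the threshold without control replicate 3 (log2 fold change -0.98, adjusted *P* = 0.0434) and with the presence of *Xist* as a covariate (adjusted *P* = 0.0400). It did not pass in the other 5 fits that left out a library, where the adjusted *P* was between 0.125 and 0.250 and the log2 fold change was smallest in size without control replicate 2 (-0.49). The ratio of means was 0.537 in the 4 libraries with *Xist* and 0.770 between the 2 without it.

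*Vcam1* is also transcribed in stromal cells, and stromal markers moved with the genotype. Of 12 fibroblast markers 11 were tested, and 8 were called, all lower, with a median log2 fold change of -1.50. Their summed level was 46388, 78818 and 68924 in control replicates 1, 2 and 3 and 24329, 20381 and 18917 in the *Atp6ap2*iECKO replicates. The most abundant was *Col3a1*, at a mean of 15515, and *Lum* was listed at 0 in 3 libraries. Of 10 mural and smooth muscle markers, led by *Pdgfrb* at a mean of 4467, 7 were called, all lower, and none was at 0. Their sum was 13589, 19642 and 20445 in the controls and 7146, 5809 and 5626 in the *Atp6ap2*iECKO libraries. The share called was 72.7% of the fibroblast and 70% of the mural markers tested, beside 8.25% of all genes tested. Both sums were lowest among controls in replicate 1, whereas *Vcam1* was lowest in replicate 3. The fibroblast sum and *Vcam1* were both highest among controls in replicate 2, and the mural sum was highest in replicate 3. The calls dropped to 4 fibroblast and 4 mural markers when the library left out was replicate 3 of the controls or replicate 2 or 3 of *Atp6ap2*iECKO. The methods describe an immunoblot check of iLEC purity. For it the paper reports VE-cadherin in the iLECs alone, and αSMA and desmin in the fraction of other cells. Those blots were not analysed here, and the part of stromal cells in the *Vcam1* difference was not tested.

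*Cd34*, which encodes a sialomucin that can carry selectin ligands, lies on the plus strand at chr1:194938819-194961279. Its normalized counts were 28536, 27741 and 24461 in control replicates 1, 2 and 3 and 34656, 37406 and 36178 in the *Atp6ap2*iECKO replicates. All *Atp6ap2*iECKO libraries were above all controls by a gap wider than the range within either genotype. *Cd34* rose, with a control mean of 26913 ± 2160 (SD, n = 3) and an *Atp6ap2*iECKO mean of 36080 ± 1377 (SD, n = 3), at a fold of 1.34 (95% interval 1.14 to 1.58). The log2 fold change was 0.43 with a standard error of 0.10 (limma, adjusted *P* = 0.0448). The exact permutation test gave *P* = 0.1 (two-sided), the lowest value it can reach with 3 libraries per genotype. The call was close to the threshold. It held without control replicate 1 (adjusted *P* = 0.0467) and was lost without control replicate 2 or 3 or any of *Atp6ap2*iECKO replicates 1, 2 and 3, where the adjusted *P* was between 0.0826 and 0.173 and the log2 fold change between 0.36 and 0.45. In the 4 libraries with *Xist* the log2 fold change was 0.33 (adjusted *P* = 0.300), and with *Xist* as a covariate the adjusted *P* was 0.0883. *Cd34* is also transcribed in fibroblasts, whose markers were lower in *Atp6ap2*iECKO libraries as given above, and the part of fibroblasts in the *Cd34* values was not tested. *Gm16897*, antisense to *Cd34*, had 0.822% of its level.

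*Ackr1*, the gene of the venular chemokine receptor, lies on the minus strand at chr1:173331886-173333750 and was barely detected. Its normalized counts were 6.94, 9.37 and 4.52 in control replicates 1, 2 and 3 and 11.2, 16.5 and 0 in the *Atp6ap2*iECKO replicates. The highest and the lowest library were both *Atp6ap2*iECKO, and the 4 libraries with *Xist* held 6.94 and 9.37 in controls and 11.2 and 0 in *Atp6ap2*iECKO. *Cadm3*, a neighbour on the same strand whose exons overlap, was at 207% of the mean level of *Ackr1*, so its reads could count toward either gene. No fold is given for *Ackr1* because it did not pass the filter.

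**Figure D2:**
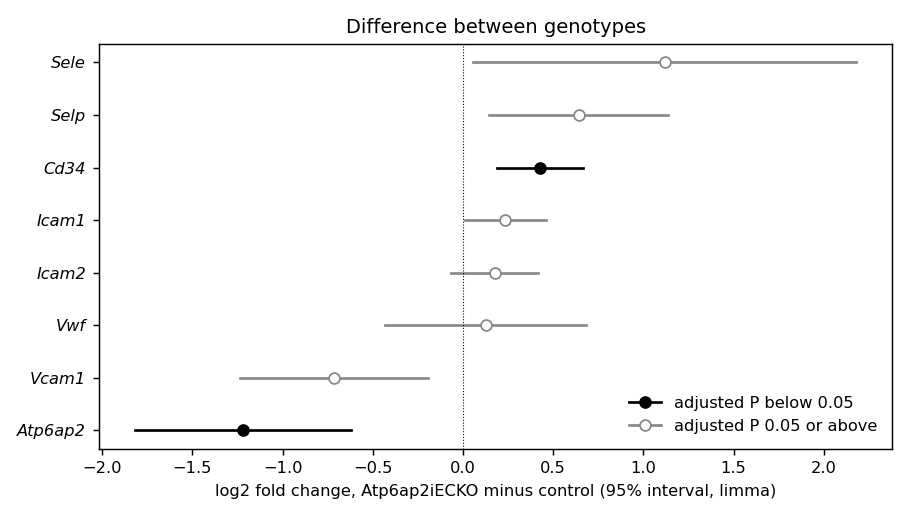
Log2 fold change (horizontal axis, *Atp6ap2*iECKO minus control, on the log2 scale of the normalized count plus 1) of the 7 tested genes and of *Atp6ap2*, with 95% intervals from limma. Filled points have an adjusted *P* value below 0.05; only *Cd34* and *Atp6ap2* are filled, and the interval of *Sele* is the widest.

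Per kb of exon, the members spanned levels from among the highest to among the lowest of the genes tested. The mean level over the 6 libraries was 4320 ± 724 normalized counts per kb (SD, n = 6) for *Cd34*, 4091 ± 434 for *Icam1*, 3358 ± 371 for *Icam2* and 1829 ± 450 for *Vwf*. These levels stood at percentiles 98.6, 98.5, 98.0 and 95.7 of the genes tested that had a length. *Vcam1* had 147 ± 57 normalized counts per kb, *Sele* 113 ± 57, *Selp* 64.9 ± 17.5 and *Ackr1* 5.76 ± 4.06, at percentiles 53.5, 47.4, 35.6 and 5.44, where the median gene tested had 126. With merged exon lengths, the ranges over libraries overlapped between *Cd34* and *Icam1*, *Icam1* and *Icam2*, *Vcam1* and *Sele*, and *Sele* and *Selp*. At these lengths, the order within these pairs is not larger than their spread. The ranges did not overlap between *Icam2* and *Vwf*, *Vwf* and *Vcam1*, or *Selp* and *Ackr1*. Also at these lengths, *Icam1* (3764) was above *Cd34* (3692) within controls, and *Sele* (149.5) was above *Vcam1* (109) within *Atp6ap2*iECKO iLECs. Lengths from the longest transcript left the order of the overall means as it was. Some of the overlaps, and both orders within a genotype, changed with these lengths. The levels rose for all members but *Sele* (113 at either length), to 10283 normalized counts per kb for *Cd34*, 7036 for *Icam1*, 3327 for *Vwf* and 319 for *Vcam1*. For the granule partners, the normalized count of *Selp* was 0.813% ± 0.135 (SD, n = 3) of that of *Vwf* in controls and 1.17% ± 0.20 (SD, n = 3) after deletion.

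**Figure D3:**
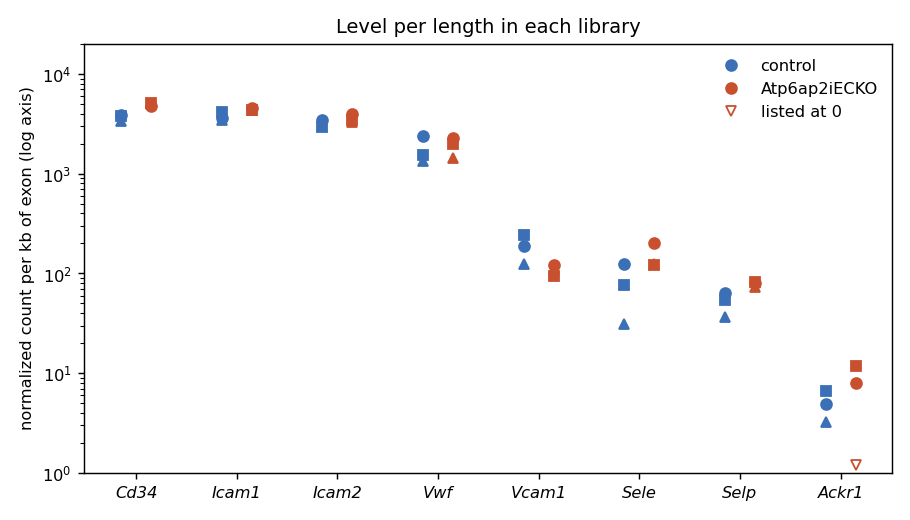
Normalized count per kb of merged exon (vertical axis, log scale) of the 8 genes in each library, ordered by their mean. *Cd34*, *Icam1*, *Icam2* and *Vwf* lie above 1000 in every library, and *Vcam1*, *Sele* and *Selp* lie between 30 and 250; the open triangle marks the *Atp6ap2*iECKO library in which *Ackr1* was listed at 0.

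Some members varied together over the 6 libraries. On the log2 scale, Pearson's r was 0.94 between *Selp* and *Sele*, 0.93 between *Selp* and *Cd34* and 0.85 between *Icam1* and *Cd34*, and it was -0.59 between *Vcam1* and *Cd34*. These values are descriptions over 6 libraries that share their scaling and include the difference between genotypes. Control replicate 3 was the lowest control for 7 of the 8 members, all but *Icam2*. Among *Atp6ap2*iECKO libraries replicate 3 was the lowest for 5 of the 8. There *Cd34* was lowest in replicate 1, where *Sele* and *Icam1* were highest. The summed panendothelial markers were also lowest in replicate 3 of each genotype, and within each genotype they followed the order of *Vwf*. They were 626091, 537031 and 479716 in control replicates 1, 2 and 3 and 570066, 554277 and 503111 in the *Atp6ap2*iECKO replicates. The part of the endothelial share of a library in the member values was not tested. Correlation within a genotype was not calculated. Among 11320 genes with a mean of at least 100, those most like *Selp* over the libraries were *Ubap2* (r = 0.999) and *Slc30a4* (r = 0.998), those most like *Sele* were *Spata13* (r = 0.998) and *Has2* (r = 0.992), and those most like *Cd34* were *Pcsk6* (r = 0.999) and *Abcb1b* (r = 0.998). *Vcam1* was most like *Ticam1* (r = 0.994) and *Adamts1* (r = 0.984), and *Vwf* most like *Rab7* (r = 0.989) and *Rac1* (r = 0.987). These genes were picked for the highest r among 11320 genes over only 6 libraries, which favours values near 1. The r values also include the difference between genotypes and are descriptions only.

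The genes that share the Weibel-Palade body with VWF and P-selectin were not called with all 6 libraries. Of 9 cargo genes tested, 4 were higher and 5 lower, with a median log2 fold change of -0.13. *Ece1*, the protease that activates endothelin and the most abundant of them, had a log2 fold change of 0.01 (adjusted *P* = 0.962), and *Plat*, tissue plasminogen activator, had 0.34 (adjusted *P* = 0.225). *Angpt2*, the gene of angiopoietin-2, named here after its values were seen, was called higher without *Atp6ap2*iECKO replicate 1 (0.66, adjusted *P* = 0.0234) and had 0.41 (adjusted *P* = 0.282) with all libraries. The machinery that forms and releases the granule had 22 tested genes, 15 higher and 7 lower, with a median of 0.09. Of these, 2 were called, both higher, a share of 9.09% that is close to the 8.25% of all genes tested. The 2 called genes were the partners of the annexin A2 complex, known to promote granule exocytosis. *S100a10* stood at normalized counts of 2533, 2557 and 2530.1 in replicates 1, 2 and 3 of the controls and of 3617, 3807 and 3398 in the *Atp6ap2*iECKO replicates (log2 fold change 0.50, adjusted *P* = 0.0117 from limma). *Anxa2* had 7380.0, 8081 and 8227 in the controls and 11745, 10255 and 9754 in the *Atp6ap2*iECKO libraries (0.42, adjusted *P* = 0.0385). Neither gene overlapped between genotypes. Among the 6 fits that left out a library, the call for *S100a10* was lost without *Atp6ap2*iECKO replicate 2 (adjusted *P* = 0.0564), and that for *Anxa2* was lost in each of them (0.0784 to 0.115). After scaling to panendothelial markers and with the *Xist* covariate, *S100a10* was called (0.0273 and 0.0237) and *Anxa2* was not (0.0697 and 0.0705). Neither was called without a variance trend, a fit that leaves the fold changes as they were. In the 4 libraries with *Xist*, 0 genes of any kind were called, so that fit cannot speak to these 2 genes.

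Of 7 tested genes that process or clear secreted VWF, 2 were called, both lower, and the median log2 fold change was -0.57. This share is 28.6%, where 8.25% of all genes tested were called and 4.97% were called lower. *Thbs1*, the gene of thrombospondin-1, which binds VWF and slows its shortening, stood at normalized counts of 41272, 50481 and 31742 in replicates 1, 2 and 3 of the controls and of 17495, 11798 and 14714 in the *Atp6ap2*iECKO replicates. It fell by 1.48 on the log2 scale (adjusted *P* = 0.0103 from limma) and was called in all 6 fits that left out a library. *Lrp1*, the gene of a clearance receptor, fell by 1.04 (adjusted *P* = 0.0287), with a call that was lost without control replicate 2 or 3 or *Atp6ap2*iECKO replicate 2 or 3 (up to 0.101). Both genes are also transcribed in stromal cells, whose markers were lower as given above.

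Beside *Cd34*, 10 of 14 listed sialomucins and selectin ligand enzymes were tested, and 4 were higher and 6 lower (median -0.15). With all 6 libraries 30% of these 10 were called, beside 8.25% of all genes tested. None was called higher with all 6 libraries. The sialomucin gene *Emcn*, named after its values were seen, was called higher without control replicate 1 (0.39, adjusted *P* = 0.0306). With all 6 libraries 3 genes were called lower, namely *Podxl2*, the gene of endoglycan, a relative of CD34 (log2 fold change -1.12, adjusted *P* = 0.0167 from limma), the sulfotransferase gene *Chst2* (-0.93, adjusted *P* = 0.0142) and the sialyltransferase gene *St3gal4* (-0.43, adjusted *P* = 0.0299). Without control replicate 3 all 3 calls were lost, at adjusted *P* values of 0.0644, 0.0597 and 0.0977. Other libraries also ended calls, namely *Atp6ap2*iECKO replicate 3 for *Podxl2* (0.068), *Atp6ap2*iECKO replicate 2 for *Chst2* (0.054), and control replicate 1 and *Atp6ap2*iECKO replicates 2 and 3 for *St3gal4* (up to 0.118). The call for *St3gal4* was also lost after scaling to panendothelial markers (0.128) and with the *Xist* covariate (0.0554). The stromal marker sums given above were lower in the same libraries as these 3 genes, and their part in the 3 falls was not tested. Among 17 other adhesion and transmigration receptors, 5 were higher and 12 lower (median -0.22). The only call with all 6 libraries was *Aoc3*, the gene of vascular adhesion protein-1, which fell by 1.07 (adjusted *P* = 0.0169) and was not called without control replicate 3 or *Atp6ap2*iECKO replicate 3 (up to 0.0701). *Aoc3* is also transcribed in smooth muscle cells, whose markers were lower as given above, and their part in its fall was not tested. Counter-receptors that leukocytes use to bind the members had 11 tested genes, with 10 higher and a median of 0.36. Over all genes tested, 50.7% were higher. The only call was *Cd44*, a hyaluronan receptor that endothelium also makes, which was lower (-0.50, adjusted *P* = 0.0475) and was lost in each of the 6 fits that left out a library (0.0734 to 0.148). The 14 leukocyte markers summed to 10838, 6129 and 10454 in control replicates 1, 2 and 3 and to 12240, 5026 and 14380 in the *Atp6ap2*iECKO replicates. The most abundant was *Lyz2*, at a mean of 3911, none of the 12 tested was called with all 6 libraries, and *Ncr1* was at 0 in 5 libraries.

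Signalling that is known to induce *Sele*, *Icam1* and *Vcam1* was represented by 25 TNF, IL-1 and NF-kB genes. Of these, 19 were higher and 6 lower, with a median of 0.10, where 50.7% of all genes tested were higher. The share called was 4%, beside 8.25% of all genes tested. Only *Relb*, a subunit of NF-kB, was called with all 6 libraries. It stood at normalized counts of 909, 841 and 871 in replicates 1, 2 and 3 of the controls and of 1058, 1236 and 1439 in the *Atp6ap2*iECKO replicates (log2 fold change 0.50, adjusted *P* = 0.0463 from limma). The genotypes did not overlap, and the call held only without *Atp6ap2*iECKO replicate 1 among the fits that left out a library (0.0255 to 0.151). The call was also lost after scaling to panendothelial markers (0.123), with the *Xist* covariate (0.0752) and without the low-value filter (0.0521). Other genes of this list, named after their values were seen, were called higher in such fits. These were *Tlr4* (0.79, adjusted *P* = 0.0410) and *Tnip1* (0.70, 0.0296) without *Atp6ap2*iECKO replicate 1, and *Nfkb2* (0.41, 0.0401) without control replicate 1. Of 15 chemokine and cytokine genes 5 were higher and 10 lower (median -0.40). *Cxcl12*, a chemokine that draws CXCR4-bearing cells, fell from 18755 ± 1261 (SD, n = 3) to 13010 ± 1402 (SD, n = 3), which is -0.53 on the log2 scale (adjusted *P* = 0.0270), and its call held only without *Atp6ap2*iECKO replicate 1 (0.0288 to 0.108 over the 6 fits). *Cxcl12* is also transcribed in stromal cells, whose markers were lower as given above, and their part in its fall was not tested. The 4 relatives of *Ackr1* that were tested had no call with all 6 libraries, with log2 fold changes of 0.27 for *Ackr3* (adjusted *P* = 0.318) and 0.22 for *Ackr2* (adjusted *P* = 0.412). *Ackr3* was called higher without control replicate 1 (adjusted *P* = 0.0328), *Ackr2* was called higher without control replicate 2 (0.0431), and *Ackr4*, named after its values were seen, was called lower with the *Xist* covariate (0.0485).

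**Figure D4:**
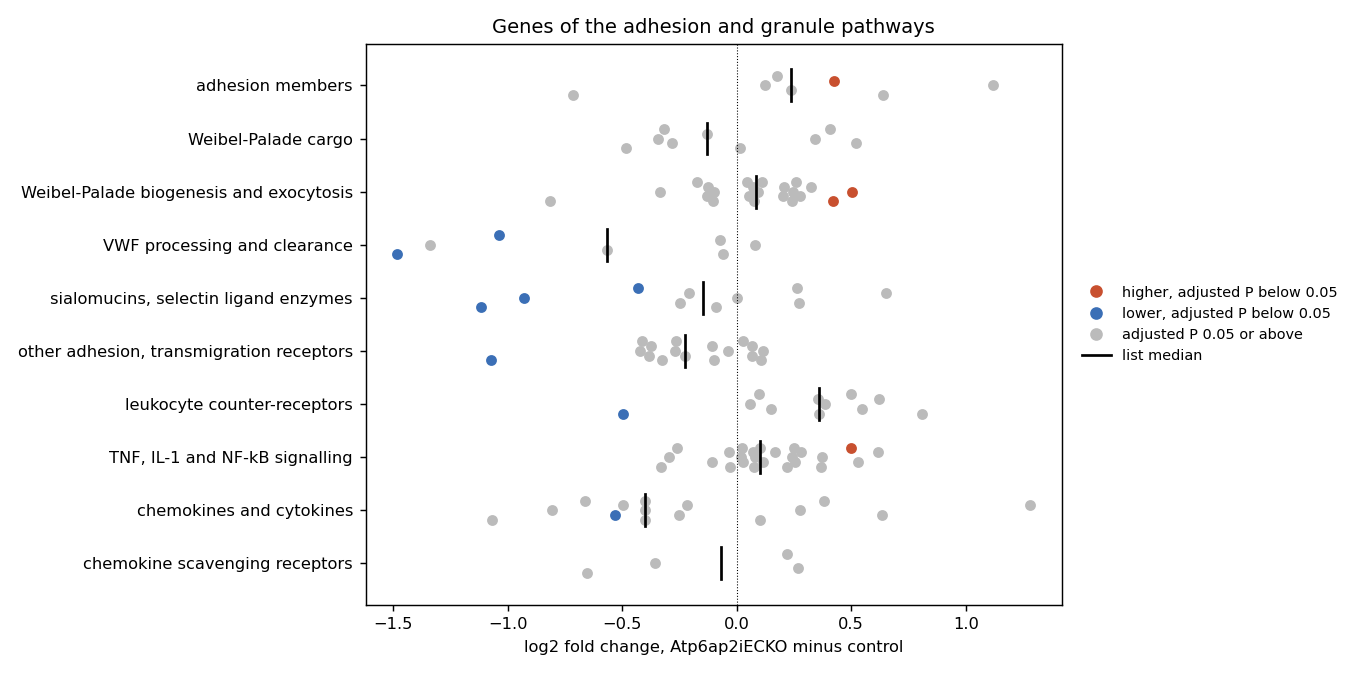
Log2 fold change (horizontal axis, *Atp6ap2*iECKO minus control) of every tested gene of the members and of the 9 lists around them. Each point is a gene, coloured by whether its adjusted *P* value was below 0.05, and the bar is the median. Calls are few, with none among cargo genes and 2 higher among the biogenesis genes, and the median of the VWF processing list lies furthest below 0.

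Vessel type markers were compared because *Vwf*, *Selp* and *Ackr1* are known as genes of veins and venules. The panendothelial markers had 12 of 20 higher, a median of 0.04 and 1 call, *Tek*, which was lower (-0.53, adjusted *P* = 0.0292 from limma). The 9 venous markers had 4 higher and 5 lower, and their calls were *Prss23*, higher (0.43, adjusted *P* = 0.0212), and *Nr2f2*, the transcription factor of venous identity, lower (-0.75, adjusted *P* = 0.0104). *Nr2f2* is also transcribed in stromal cells, whose markers were lower as given above, and their part in its fall was not tested. The venous markers summed to 25431, 22166 and 22903 in control replicates 1, 2 and 3 and 23726, 25847 and 23839 in the *Atp6ap2*iECKO replicates. The genotypes overlapped in this sum, which like *Selp* was highest in replicate 1 among controls and in replicate 2 among *Atp6ap2*iECKO libraries. The sum was lowest in control replicate 2 and *Atp6ap2*iECKO replicate 1, whereas *Selp* was lowest in replicate 3 of each genotype. The part of venous cells in the *Selp* values was not tested. All 8 arterial markers were lower, 6 of them called, with a median of -0.63. The share called was 75% of arterial and 22.2% of venous markers, beside 8.25% of all genes tested. The number of arterial markers called was 2 without control replicate 3. It was 3 without control replicate 1 or 2 or *Atp6ap2*iECKO replicate 2 or 3, and 5 without *Atp6ap2*iECKO replicate 1. The stromal marker sums given above were lower in the same libraries, and the part of stromal cells in the arterial falls was not tested. The call for *Nr2f2* held in all 6 fits that left out a library, that for *Tek* held only without *Atp6ap2*iECKO replicate 1 (0.0335 to 0.117), and that for *Prss23* held only without control replicate 1 or *Atp6ap2*iECKO replicate 1 (0.0176 to 0.0877).

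**Figure D5:**
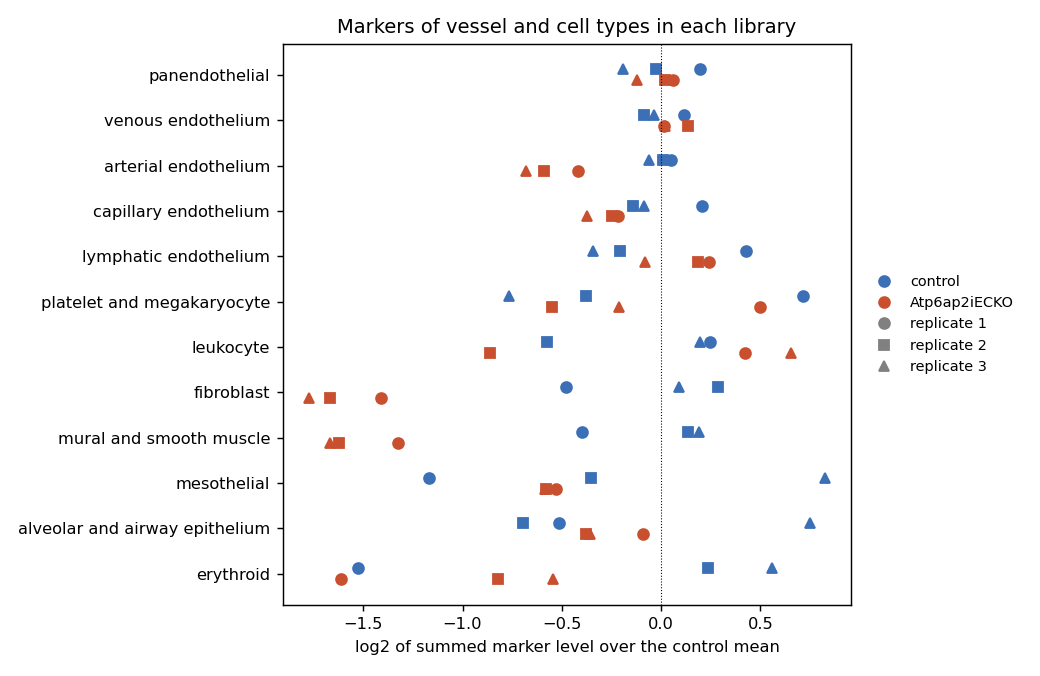
Log2 of the summed level of each marker list over its mean in control libraries (horizontal axis), for 12 vessel and cell types. Points are libraries, coloured by genotype, with 1 symbol for each replicate number. Fibroblast and mural sums of the *Atp6ap2*iECKO libraries lie below every control, venous and platelet sums overlap, and epithelial markers stand out in control replicate 3, where they summed to 69780.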

How the data were processed

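The authors aligned reads of 3 control and 3 *Atp6ap2*iECKO mRNA libraries to mm10 in BaseSpace and took gene values from its tool for differential expression. The annotation and strand setting are not given in the sources used here. The deposited table holds a normalized signal per gene and library. The labels call the values raw counts, but they are not whole, and their median ratio to the geometric mean was 1.0036 in all 6 libraries. Of the low values, 29.4% to 49.2% were whole multiples of the smallest step (within 0.02 steps), so reads could not be recovered and no count model was run. That step put depth at 1.00 to 1.04 (controls) and 1.25 to 1.55 (*Atp6ap2*iECKO) relative to the shallowest library.

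limma 3.58.1 (R 4.3.3, trended variance) was fitted to log2 of the value plus 1 for the 14456 genes that reached 10 in at least 3 libraries. Benjamini-Hochberg adjustment ran over these genes, and the threshold was 0.05. Fold changes on this scale understate those of low genes. Exact permutation tests were two-sided. Coordinates and lengths are from GENCODE vM21 on GRCm38. Columns of other samples numbered 0. Figures used matplotlib 3.10.9.

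Named genes were the members, *Atp6ap2*, called genes of 21 lists or otherwise their 2 most abundant, the 2 genes most correlated with each member, and markers listed at 0. The members and lists were chosen with earlier results of these data known. Alternatives were other scalings, filters, pseudocounts, thresholds and variance models, each library left out, and covariates for replicate number and *Xist*.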

Additional observations from a re-analysis of the deposited data

How the results depend on the processing

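All tested members except *Vwf* kept their sign in all 17 alternative fits. Fits that changed only the filter, the variance trend or a covariate gave the log2 fold changes of the main fit, so their signs could not differ. *Vwf* turned to -0.051 without control replicate 3, to -0.013 without *Atp6ap2*iECKO replicate 1 (-0.051 to 0.374 over the fits that left out a library) and to -0.094 in the 4 libraries with *Xist*. The number of genes called was 667 after scaling to panendothelial markers (chosen after seeing the data), 304 without a variance trend, 767 with the *Xist* covariate, 90 at an adjusted *P* value below 0.01, 1987 at one below 0.1, and 206 to 983 when a library was left out (270 without control replicate 3, 250 without *Atp6ap2*iECKO replicate 2 and 206 without replicate 3). In the 4 libraries with *Xist*, also chosen after seeing the data, limma called 0 genes, with 2196 at an unadjusted *P* value below 0.05, and 0 list genes, with 70. The number of members called was 0 without the filter on low values, without a trend, in those 4 libraries and below 0.01, 2 below 0.1 (*Vcam1* and *Cd34*), and 0 to 1 when a library was left out. List genes called were 14 without a trend, 7 below 0.01 and 15 to 38 when a library was left out. The causes of these changes were not tested. Of the 38 list genes called, 13 were called in all 6 fits that left out a library and 32 after panendothelial scaling. Another 16 list genes were called in at least 1 of the fits that left out a library or used the *Xist* covariate, 8 of them without control replicate 1 and 5 without *Atp6ap2*iECKO replicate 1.

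Replicate numbers were not treated as pairs in the main fit. Deviations of same-numbered libraries correlated by 0.25, 0.11 and 0.08, against -0.07 on average for other pairs, and 5 of 6 libraries correlated best with their own number. Because deviations were taken from the mean of each genotype, the average of the other pairs is tied to that of the same-numbered pairs. It is no separate comparison. These values do not settle whether the numbers pair the samples. With the replicate block, 1508 genes, 47 list genes and 2 members, *Sele* (adjusted *P* = 0.0487) and *Cd34* (0.0350), were called. The main limits are 3 libraries per genotype, unknown read numbers, which leave *Ackr1* undescribed beyond its values, and *Xist* levels that go against the labels of 4 libraries.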

Other observations

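Of 10 capillary markers 2 were higher and 8 lower, with a median log2 fold change of -0.29, and their sums were lower in every *Atp6ap2*iECKO library (90763 to 101376) than in any control (106897 to 135588). Among them *Apln*, the gene of the peptide apelin, was higher (log2 fold change 0.87, adjusted *P* = 0.0284 from limma) and *Fibin* lower (-1.21, adjusted *P* = 0.0108). Among 8 lymphatic markers *Thy1* was higher (0.77, adjusted *P* = 0.0326). The arterial calls, all lower, were *Gja5*, *Gja4*, *Efnb2*, *Dll4*, *Hey1* and *Cxcl12*, with log2 fold changes from -1.15 to -0.33. *Fibin*, *Gja4* and *Gja5* were called in all 6 fits that left out a library. *Hey1* lost its call without control replicate 3, and *Efnb2* was called only without *Atp6ap2*iECKO replicate 1. *Dll4* lost its call in each of the 6 fits (adjusted *P* 0.0600 to 0.167) and after panendothelial scaling (0.0899). *Apln* was called only without *Atp6ap2*iECKO replicate 1, and *Thy1* only without control replicate 1.

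The club cell gene *Scgb1a1* was the only call among 10 epithelial markers, at 45.9, 73.3 and 125 in control replicates 1, 2 and 3 and 264, 168 and 369.9 in the *Atp6ap2*iECKO replicates (log2 fold change 1.75, adjusted *P* = 0.0408 from limma), and it was called only without control replicate 3 among the fits that left out a library. All 6 erythroid markers tested were lower (median -0.56), none of them called with all 6 libraries, and *Hbb-bs* was listed at 0 in all 6 libraries. Without control replicate 1, *Hba-a1* (-1.39, adjusted *P* = 0.0455) and *Hbb-bt* (-1.07, 0.0240) were called lower. Of 6 mesothelial markers 3 were tested, 1 higher and 2 lower, with no call.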
